A study of Mus musculus with 2 samples.

Results

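The mouse miRNAs numbered miR-690 to miR-721 are a run of consecutively named small RNAs with no common precursor, and they include both arms of miR-712. They were taken by name: every array probe for a mouse miRNA with a number in that range, with any letter or arm, gave 35 of the 1899 mouse miRNA probes used. The samples were epithelial cells isolated from the colon of C57BL/6 mice, and both groups share this strain and an age of 8 weeks. The DSS group (1 array) received 2.5% dextran sulfate sodium, a polymer that damages the colon lining and starts colitis, for 5 days in their water. The control group (1 array) carries the agent label control. Each sample of total RNA was labelled with the dye Hy5 and hybridised to its own array. Whether a sample came from 1 mouse or several pooled mice is not stated in the sources used here.

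With 1 array per group, the differences below have no replicate check and no p-value, and precision is limited by that number. Intensity is the brightness of a spot on the scanner's linear scale. A probe was called measured when its spot exceeded the trimmed mean of the blank spots plus 2 SD, which was 130.9 on the DSS array and 99.6 on the control array. Intensity over blanks is the spot minus that blank mean, which was 121.8 on the DSS array and 92.7 on the control array. The log2 difference, DSS minus control, is taken on background-corrected, quantile-normalised values that carry an offset of 50, which shrinks the differences of dim probes. The authors' values are the processed intensities of the authors' deposited table, which carry no offset. Brightness differs between probes for reasons of sequence and design, so a brighter probe is not taken to mean a more abundant miRNA.

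A canonical miRNA is cut from a hairpin by Drosha in the nucleus and by Dicer in the cytoplasm. Its seed, bases 2 to 8, pairs with target mRNAs. Several miRNAs of this range depart from that route. miR-712 is cut from an internal transcribed spacer of the ribosomal RNA precursor, independently of the usual processing, and in mouse endothelium it is induced by disturbed flow and represses Timp3, an inhibitor of matrix metalloproteinases. miR-702 is a mirtron, a hairpin released by splicing of a short intron. The sequence of miR-706 matches B1, an abundant short interspersed repeat of the mouse genome. miR-709 is enriched in the nucleus in mouse cells, where it binds the primary transcript of miR-15a and miR-16-1 and restrains its maturation.

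Mature sequences from RefSeq (GRCm38.p6) were found for 29 of the 35 probes. Those of the bright probes, of both miR-702 arms and of miR-692 are shown first because the values below turn on them, and because they range widely in guanine. The capitals mark the seed.
miR-711: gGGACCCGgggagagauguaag
miR-705: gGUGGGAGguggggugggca
miR-702-5p: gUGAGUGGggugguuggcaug
miR-698-5p: uGUGGGUGggacagggauguu
miR-690: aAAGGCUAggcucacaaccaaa
miR-706: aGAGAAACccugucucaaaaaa
miR-702-3p: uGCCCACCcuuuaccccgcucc
miR-692: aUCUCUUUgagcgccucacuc

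In GRCm38.p6, miR-711 lies at chr9:108969970-108969991 on the + strand, inside the span of Col7a1, the gene of type VII collagen, which anchors epithelium to the tissue beneath it. miR-705 lies at chr6:85336341-85336360 on the − strand within Rab11fip5, a Rab11 effector of endosome recycling. The miR-702 arms lie at chr5:136991442-136991462 and chr5:136991520-136991541 on the + strand within Plod3, a collagen lysyl hydroxylase. miR-698-5p lies at chr4:124743818-124743838 on the + strand, within Inpp5b and the long noncoding RNA Gm12915. miR-690 lies at chr16:28599940-28599961 on the − strand within Fgf12, and miR-706 at chr6:120034290-120034311 on the − strand within Wnk1, a kinase of ion transport. miR-692 has 3 copies, at chr4:125504805-125504825 (+), chr13:74407121-74407141 (+) and chr17:6895259-6895279 (−), of which the first lies within Grik3 and the ferritin pseudogene Ftl2-ps and the second within the ferritin pseudogene Ftl1-ps1. Exon and intron borders were not used here.

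Of the 35 probes, 21 were measured on the DSS array (60.0%), beside 61.6% of all 1899 mouse miRNA probes. On the control array 22 were measured (62.9%), beside 56.3% of all probes. Both arrays measured 19 of them. A further 2 were seen only in DSS, 3 only in the control, and 11 fell short on both. The shares lie near those of all probes on both arrays. The negative control spots of the array reached 137.6 on the DSS array and 105.8 on the control array as the mean of the brightest set. Above that stricter level lay 15 members on the DSS array, 19 on the control array and 14 on both. The members just inside the blank limit were miR-697 on the DSS array (131.5) and miR-718 on the control array (99.66), and those just outside it were miR-710 on the DSS array (129.8) and miR-701-3p on the control array (99.63).

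**Figure D1:**
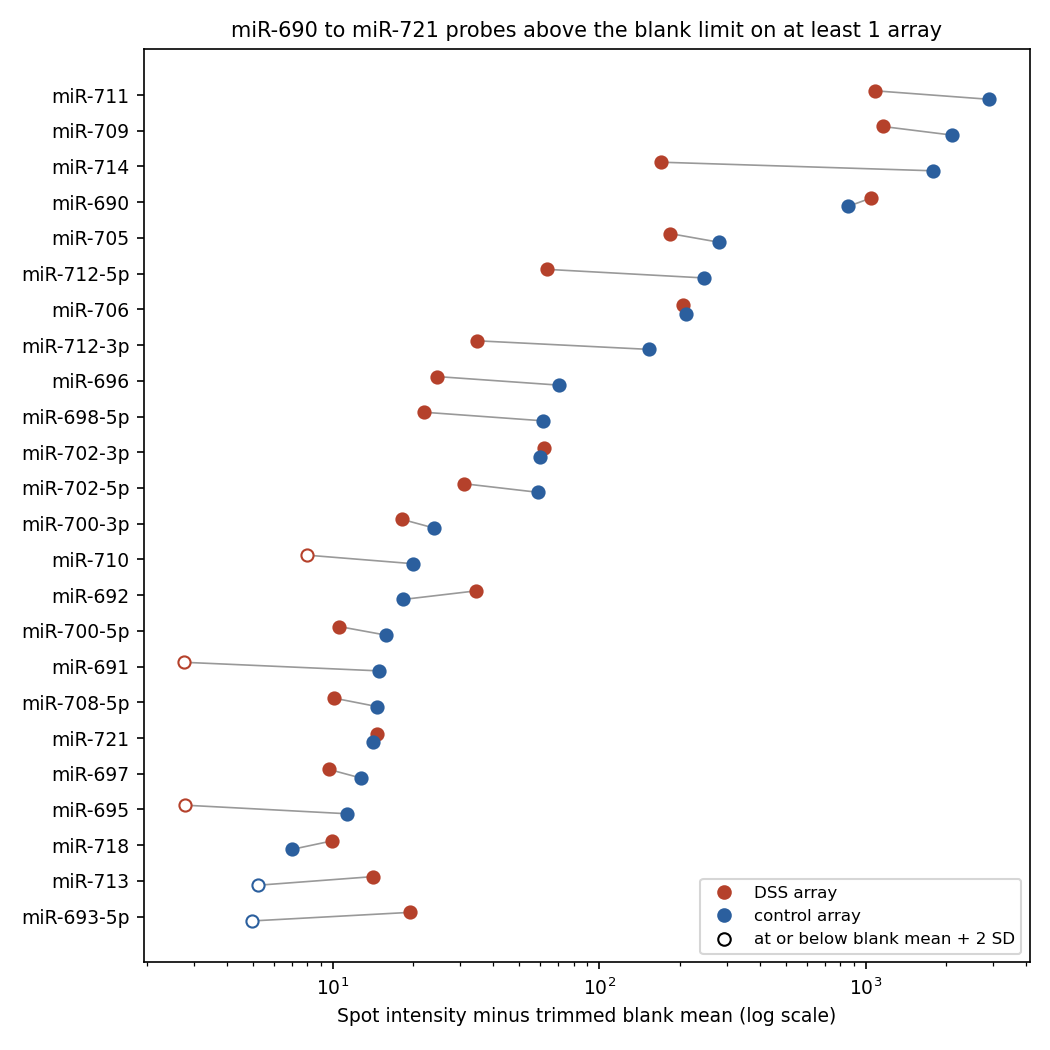
Intensity over blanks (log axis) of the 24 probes measured on at least 1 array, with red points for the DSS array, blue points for the control array and open points for values at or below the blank limit. miR-714, miR-712-5p and miR-712-3p lie far to the left on the DSS array, while miR-690 and miR-692 lie to the right of their control points.

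Both arms of miR-712 were dimmer on the DSS array. The miR-712-5p spot read 185.4 on the DSS array and 339.3 on the control array, which is 63.6 and 246.7 over blanks. The miR-712-3p spot read 156.6 on the DSS array and 246.0 on the control array, which is 34.8 and 153.3 over blanks, or 7.69 and 43.9 blank SDs. Both arms were thus well clear of the blanks on both arrays, and both exceeded the negative controls. The normalised log2 difference was −0.92 for miR-712-5p and −0.94 for miR-712-3p, or 1.89-fold and 1.92-fold lower. In the authors' values miR-712-5p was 50.1 on the DSS array and 138.8 on the control array (2.77-fold lower), and miR-712-3p was 27.4 and 86.3 (3.15-fold lower). Each arm was thus past 2-fold in the authors' values and just under it after quantile normalisation. With the same offset, both were also past 2-fold with median scaling (−1.18 for the 5p and −1.03 for the 3p arm) and with no scaling (−1.27 and −1.12). The files also give a background value for each spot, and what it covers is not stated in the sources used here. It was large in bright spots and was not subtracted in the normalised values above. This background was 104% of the miR-712-5p spot on the DSS array and 98.5% on the control array. For miR-712-3p it was 106% and 93.4%. After its subtraction the log2 differences were −0.07 and −0.17 for the 5p and the 3p arm.

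In humans, miR-205 is known as the functional counterpart of miR-712 and shares its target TIMP3. miR-205-5p was at 30.6 over blanks on the DSS array and 10.02 on the control array, a log2 difference of 0.36. The control value lies below the negative control spots, which reached 13.2 over blanks there. miR-205-3p was at 10.5 and 8.69 over blanks, with a difference of −0.03. In this pair of arrays both miR-712 arms stood lower in DSS. miR-205-5p read higher there, by an amount that its control value leaves poorly determined.

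miR-714 had the largest difference among these miRNAs, and the most negative of all 995 mouse miRNA probes measured on both arrays. Its spot read 292 on the DSS array and 1871 on the control array, which is 170 and 1778 over blanks. It ranked 162nd of 1899 on the DSS array and 48th on the control array. The normalised log2 difference was −2.29, or 4.90-fold lower, and the authors' values of 134 and 1001 were 7.47-fold lower. The files' background was 72.4% of this spot on the DSS array and 108% on the control array, where it exceeds the spot, and subtracting it turned the difference to 1.28. The direction for miR-714 therefore depends on whether that background is subtracted.

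miR-711, which lies inside Col7a1, was among the brightest probes. Its spot read 1198 on the DSS array and 2999 on the control array, or 1077 and 2907 over blanks, at ranks 44 and 31. The log2 difference was −0.80, or 1.74-fold lower, and −0.95 in the authors' values of 847 and 1636. It stood lower on the DSS array under each of the 10 other settings run, between −0.75 and −2.35. miR-711 is the brightest probe here whose direction did not turn with any of them. The files' background was 110% of its spot on the DSS array and 97.7% on the control array. Little or no signal was thus left after its subtraction, where the difference was −0.78.

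After normalisation, miR-690 was the member furthest above its control value. In mouse it is carried by vesicles of alternatively activated macrophages and targets Nadk, the kinase that makes NADP. Its spot read 1169 on the DSS array and 947 on the control array, which is 1047 and 854 over blanks, and its rank was 45 and 78. The log2 difference was 1.07, or 2.09-fold higher, and 0.78 in the authors' values of 824 and 481. The normalised value follows the rank, and with no scaling between arrays the difference was 0.28. Scaling to the spike control spots gave −0.69, and subtraction of the files' background, which was 124% of the spot on the DSS array and 85.4% on the control array, gave −1.50.

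miR-709, the nuclear miRNA, held the same rank of 42 on both arrays, so its quantile-normalised difference is 0.00 by construction. Its spot read 1279 on the DSS array and 2188 on the control array. In the authors' values it was 910 and 1179, a log2 difference of −0.37. The differences under the other settings lay between −1.79 and 0.29, so no direction can be given. Of the 5 probes of miR-15a and miR-16 listed beside it, miR-16-5p (0.18) and miR-15a-5p (0.05) were higher on the DSS array. miR-16-2-3p passed the limit in DSS alone, and miR-15a-3p and miR-16-1-3p were measured on neither. By its name miR-16-2-3p is not an arm of miR-16-1, and the name of miR-16-5p does not tell the precursors apart. miR-15a-5p was at 12.8 over blanks on the DSS array and 7.29 on the control array, both below the brightest negative control spots.

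miR-705 and miR-706 differed less. The miR-705 spot read 306 on the DSS array and 373 on the control array, with a log2 difference of 0.07 and −0.12 in the authors' values of 145 and 158. The miR-706 spot read 328 on the DSS array and 304 on the control array, with a log2 difference of 0.51 and 0.45 in the authors' values of 162 and 119. Over blanks, miR-706 was at 206 and 211, and its difference was −0.01 with no scaling. The full miR-706 sequence, searched on both strands as DNA, occurred in 2 of 32851 mouse promoter windows of RefSeq around gene starts, which is 0.00609%. Only exact matches over the full length were counted, so this share does not tell how often the B1 repeat occurs there.

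**Figure D2:**
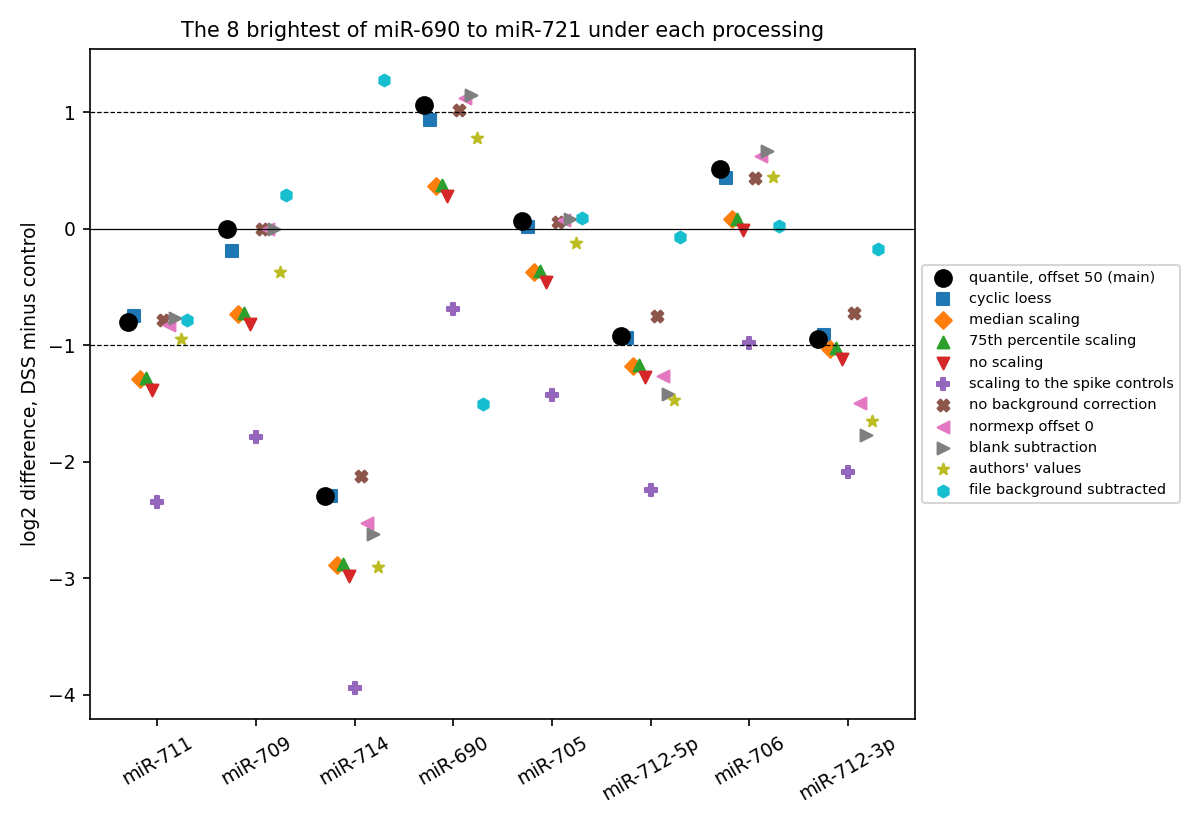
The log2 difference, DSS minus control, of the 8 brightest probes under 11 processings of the same arrays, with 1 marker per processing and dashed lines at 2-fold. miR-711 and both miR-712 arms lie below 0 under each one, while miR-714, miR-690, miR-709, miR-705 and miR-706 have points on both sides of 0.

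Of the members that are dimmer but measured on both arrays, miR-696 and miR-698-5p were lower on the DSS array. miR-696, which represses Ppargc1a in mouse muscle, was at 24.5 over blanks on the DSS array and 70.2 on the control array, with a log2 difference of −0.51. The authors' values of 19.3 and 39.5 were 2.05-fold lower. miR-698-5p was at 22.0 and 61.5 over blanks, with a difference of −0.46 and −0.997 in the authors' values of 17.3 and 34.6, just short of 2-fold. miR-692 went the other way, at 34.4 over blanks on the DSS array and 18.4 on the control array. Its difference was 0.31, and the authors' values of 27.1 and 10.3 were 2.62-fold higher. On the control array the brightest negative control spots were at 13.2 over blanks, so this fold is poorly determined. On the DSS array such spots reached 15.8 over blanks. The folds of miR-696 and miR-698-5p, at 24.5 and 22.0 there, are limited in the same way.

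In the normalised and the authors' values, the arms of the mirtron miR-702 stood on opposite sides of 0. miR-702-5p read 152.7 on the DSS array and 151.3 on the control array, or 31.0 and 58.6 over blanks, a log2 difference of −0.27 and −0.44 in the authors' values. miR-702-3p read 184 and 153, or 62.1 and 60.1 over blanks, a difference of 0.22 and 0.53 in the authors' values. The unscaled differences were −0.33 for the 5p arm and 0.06 for the 3p arm. Both arms were lower after subtraction of the files' background (−0.03 for the 5p and −0.09 for the 3p arm). They were also both lower with scaling to the spike controls (−1.30 and −0.91). The arms of miR-700, which lies within Rcan3, a regulator of calcineurin, were at −0.09 (3p) and −0.15 (5p), and both were close to the blanks. The 3p arm was at 18.2 and 23.9 over blanks and the 5p arm at 10.6 and 15.8. On the DSS array the 5p arm lay below the brightest negative control spots, so its difference cannot be resolved.

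The 4 remaining members measured on both arrays lay at the level of the negative control spots on at least 1 array. miR-708-5p, from a hairpin within Tenm4, was at 10.05 over blanks on the DSS array and 14.7 on the control array (log2 difference −0.14). miR-721 was at 14.7 and 14.1 (−0.01), miR-697 at 9.68 and 12.7 (−0.12), and miR-718, within Irak1, a kinase of Toll-like receptor signalling, at 9.91 and 6.997 (−0.02). No difference of these 4 can be resolved at this brightness.

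Of the members measured on a single array, none reached a bound of 1.5-fold in the normalised values. Each bound was set against the dim array's lowest measured value, or the probe's own value there if higher. miR-710 read 129.8 on the DSS array, under the limit, and 112.7 on the control array, which makes it at least 1.19-fold lower. miR-691 was at least 1.12-fold lower and miR-695 at least 1.08-fold lower, with control spots of 107.6 and 104.0. miR-693-5p, whose hairpin lies within Xpo5, the exporter of miRNA precursors, read 141.3 on the DSS array and 97.7 on the control array, at least 1.15-fold higher. miR-713 read 135.9 and 97.9, at least 1.06-fold higher. Against the lowest value the authors' table lists for the other array, and with no offset, the bounds were at least 3.90-fold higher for miR-693-5p, at least 2.82-fold higher for miR-713, at least 1.58-fold lower for miR-710 and at least 1.17-fold lower for miR-691, and miR-695 gave none. These lowest listed values, 7.14 on the DSS array and 3.94 on the control array, belong to spots below the brightest negative control spots. The folds from the authors' table also carry the authors' scaling of each array, and they are not firm lower bounds. The DSS spot of miR-713 and the control spot of miR-695 each lie below the brightest negative control spots of the same array. The sequence of miR-710, at chr8:64514401-64514422 on the − strand, is shown because this probe is the brightest of those measured on the control array only.
miR-710: cCAAGUCUuggggagaguugag

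The 11 members measured on neither array were miR-693-3p, miR-694, miR-698-3p, miR-701-5p, miR-701-3p, miR-703, miR-704, miR-707, miR-708-3p, miR-717 and miR-719. Their spots lay between 117.7 and 129.3 on the DSS array and between 87.8 and 99.6 on the control array, at or below the blank limits. Of the hairpins with both arms on the array, miR-693, miR-698 and miR-708 had their 3p arm on neither array, and miR-701 had neither arm measured.

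Among the 19 members measured on both arrays, 13 were lower on the DSS array, 5 higher and 1 equal (68.4% lower), beside 50.6% lower among all 995 such probes. This balance depends on the scaling: with median scaling and with scaling to the 75th percentile 10 members were higher and 9 lower, beside 45.0% and 43.9% lower among all probes. The median log2 difference was −0.12 for the members and −0.004 for all probes. At least 2-fold higher was 1 of 19 (miR-690), beside 0.503% of the 995, and at least 2-fold lower was 1 of 19 (miR-714), beside 1.01%. In the authors' values 1 of 19 was at least 2-fold higher (miR-692), beside 8.94%, and 4 were at least 2-fold lower (miR-714, miR-712-5p, miR-712-3p and miR-696), beside 4.12%. There the median was −0.10 for the members and 0.21 for all probes, and 57.9% of members were lower beside 36.1% of all. With median scaling the members' median was 0.044 and that of all probes 0.036, so that the members lay 0.0082 above all probes there.

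**Figure D3:**
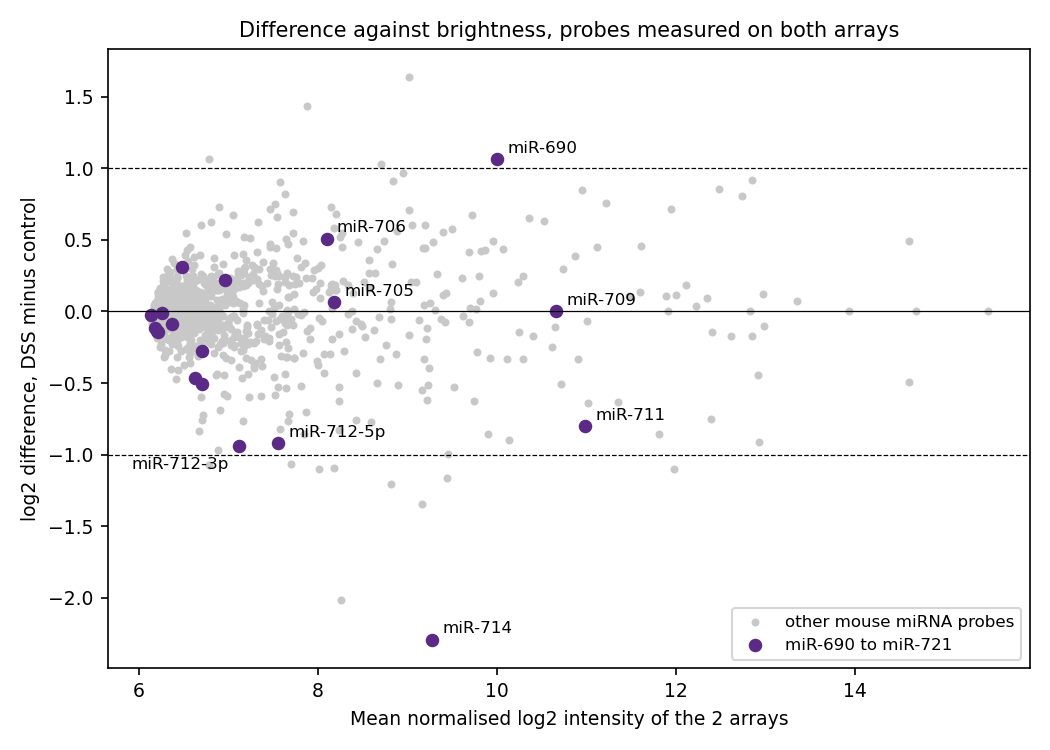
The log2 difference, DSS minus control, against the mean normalised log2 intensity of the arrays for the 995 probes measured on both, with the 19 members in purple and dashed lines at 2-fold. miR-714 is the lowest point of the plot, miR-690 lies above the upper line, and most dim members lie at or just below 0.

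Blocks of higher-numbered miRNAs are set beside these values. For miR-5097 to miR-5136, 26 of 38 probes were measured on both arrays, with a median log2 difference of −0.02, 2 past 2-fold upward and 0 past 2-fold downward. For miR-6236 to miR-6546, 53 of 108 were measured on both arrays, with a median of 0.02 and 0 past 2-fold in either direction. In the authors' values the medians were 0.09 and 0.32, with 2 and 6 probes at least 2-fold higher and 1 probe at least 2-fold lower in each block. These differences between blocks were not tested.

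Among the 29 members with a sequence no seed occurred more than 1 time, and 5 of them share theirs with another miRNA among the 1613 array probes with a sequence. miR-705 shares its seed with miR-6922-5p, miR-6993-5p and miR-7008-5p, miR-702-5p with miR-3102-5p, miR-698-5p with miR-7078-5p, and miR-708-5p with miR-28a-5p. The sequences of 3 such partners and of miR-721 are shown because their values are read beside each other, and the capitals again mark the seed.
miR-6922-5p: uGUGGGAGgggacuguagagagg
miR-3102-5p: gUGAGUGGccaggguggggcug
miR-7078-5p: uGUGGGUGguaggagacgcu
miR-721: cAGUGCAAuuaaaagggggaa

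Of the miRNAs sharing the miR-705 seed, miR-6922-5p was at 68.8 over blanks on the DSS array and 302 on the control array (log2 difference −1.06), miR-6993-5p at 36.5 and 38.4 (0.07) and miR-7008-5p at 126 and 194 (−0.02). miR-705 itself was at 0.07. miR-3102-5p was at 558 and 1486 (−0.32), beside −0.27 for miR-702-5p, and miR-7078-5p at 139 and 298 (−0.30), beside −0.46 for miR-698-5p. miR-28a-5p was at 9.53 and 20.9 (−0.25), beside −0.14 for miR-708-5p. miR-721 has the seed of the miR-130 and miR-301 family, whose members regulate growth and TGF-beta signalling genes. The 6 other probes with that seed, miR-130a-3p, miR-130b-3p, miR-130c, miR-301a-3p, miR-6341 and miR-6389, were measured on neither array.

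The members with guanine-rich sequences tended to be lower on the DSS array. Guanine made up 11 of the 22 bases of miR-711, 52.4% of miR-698-5p and 57.1% of miR-702-5p, all lower, and 18.2% of miR-690, 13.6% of miR-706, 14.3% of miR-692 and 9.09% of miR-702-3p, all higher. miR-705, with 70.0% the richest in guanine, was at 0.07. Across the 14 members with a sequence that were measured on both arrays, Spearman's rho between guanine share and log2 difference was −0.61, and −0.62 with the authors' values. The 14 include miR-700-5p, miR-708-5p, miR-721, miR-697 and miR-718, whose differences cannot be resolved. They leave out miR-714, miR-709, miR-696 and both miR-712 arms, for which no sequence was found. Across all 856 such probes it was −0.24, and −0.42 with the authors' values. These are descriptions across probes that share the same 2 arrays and their scaling. Guanine share also went with brightness across all 1613 probes with a sequence, with rho of 0.34 on the DSS array and 0.39 on the control array. Its part in the differences was not tested.

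**Figure D4:**
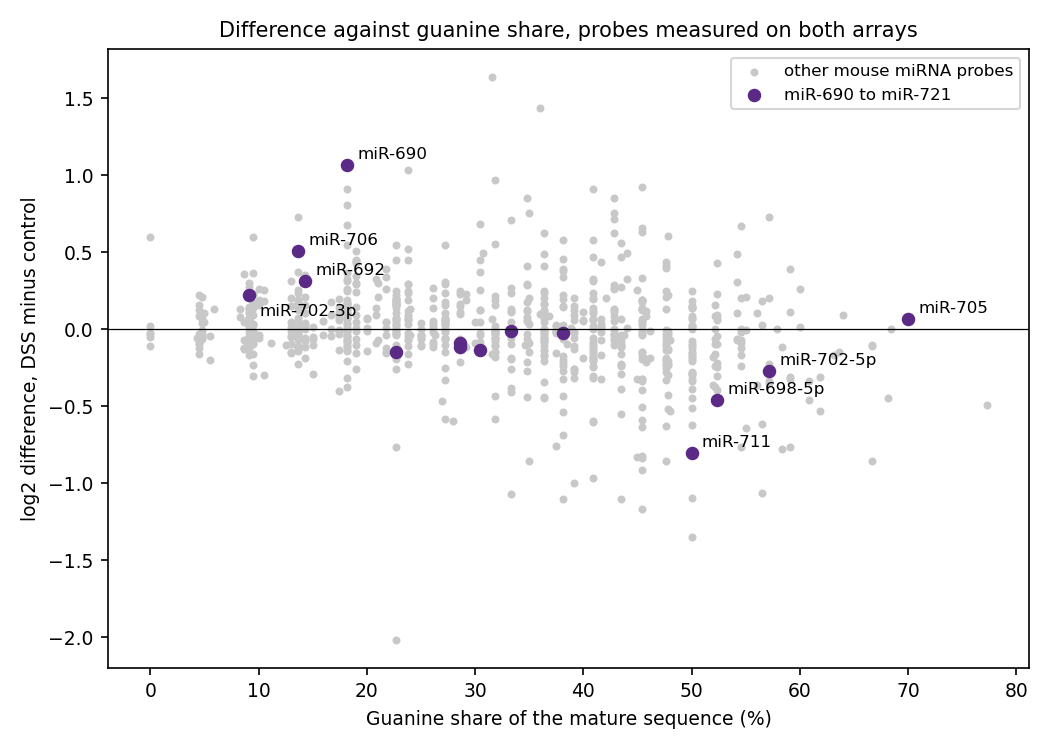
The log2 difference, DSS minus control, against the guanine share of the mature sequence (%) for the 856 probes with a sequence that were measured on both arrays, with 14 members in purple. Members under 20% guanine lie above 0 and miR-711, miR-698-5p and miR-702-5p, at 50% or more, lie below it. miR-705, the richest in guanine at 70.0%, lies just above 0.

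Other features of these arrays moved with the comparison. Of 9 colonic epithelial miRNAs, such as the miR-200 family and miR-192, 8 were measured on both arrays, 7 of them higher and 1 lower on the DSS array, and the summed intensity over blanks of these 8 was 957 on the DSS array and 944 on the control array. Of 7 leukocyte miRNAs 3 were measured on both arrays, all higher, with sums of 139 and 51.2 over these 3. miR-150-5p was at 80.6 over blanks on the DSS array and 13.7 on the control array. miR-223-3p was at 30.3 and 17.4, and miR-342-3p at 28.1 and 20.1. The control value of miR-150-5p lies close to the brightest negative control spots there, at 13.2 over blanks. miR-155-5p and miR-146a-5p were measured on neither array. Of the hairpin of miR-142a, which defines blood cells, the 3p arm was measured on neither array, and the 5p arm, at 19.9 over blanks, in DSS alone. Of 3 red cell miRNAs 2 were higher (sums of 131 and 87.4), and of 7 muscle and fibroblast miRNAs 4 were higher and 2 lower (sums of 851 and 1094). The counts follow the normalised differences, while the sums are not scaled between arrays. For the muscle and fibroblast list they therefore point in opposite directions. The part of a shift in cell types in the differences above was not tested, and fewer cells of a type and less RNA per cell cannot be told apart. Both spike controls were brighter on the DSS array, at means of 36835 and 33720 over blanks, against 17974 for each on the control array, with CVs over 8 spots between 5.31% and 10.1%. One control probe, S-Probe6, was lower on the DSS array, at 19.8 ± 5.24 over blanks against 96.3 ± 6.22 on the control array (SD over 8 spots of 1 array). No source used here states what it detects, and its part was not tested.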

How the data were processed

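The authors deposited, for each array, a scanner table of 3200 spots with medians of spot and background intensity, combined over several gains per the file headers, and a value table with 1 processed intensity per probe. Each value in that table equals the spot intensity minus the trimmed blank mean, times 0.787 (DSS array) and 0.563 (control array), and is listed for exactly the probes above the blank limit. The scanner's software and the array's maker are not stated in the sources used here.

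Blank means and SDs were trimmed by 45 of the 896 blank spots at each end. Each miRNA probe has 1 spot, and 1 probe flagged for poor quality was dropped. Spot intensities were corrected with normexp (offset 50, all spots) in limma 3.58.1 (R 4.3.3), log2 transformed and quantile normalised over 1899 probes. The procedure was tested on simulated data, with changes placed only in probes brighter than the median, on the control array, of those measured on both arrays. Changes in dimmer probes, which include members of this range, were therefore not tested in this way. Differences were counted at 2-fold or more among probes measured on both arrays, with no test, as each group holds 1 array. Named with their values were every probe of the range, and lists of cell type markers, miR-15a and miR-16 probes, miR-205 and miRNAs sharing a seed. The members and lists were chosen with earlier results of these data known. Sequences came from RefSeq (GRCm38.p6). Alternatives covered scaling, background correction, the detection limit, the fold threshold and the authors' values.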

Additional observations from a re-analysis of the deposited data

How the results depend on the processing

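The count of members at least 2-fold different, 2 of 19 as reported, was 4 with each of median scaling, scaling to the 75th percentile and no scaling (each 0 higher and 4 lower), 1 with cyclic loess, 11 with scaling to the spike controls (all lower), 7 with blank subtraction (2 higher, 5 lower), 4 with offset 0 (1 higher, 3 lower), 5 in the authors' values (1 higher, 4 lower) and 5 at a threshold of 1.5-fold (1 higher, 4 lower). It stayed at 2 with no background correction, with subtraction of the files' background, with the detection limit at 3 SD (15 members) and with members measured on at least 1 array (24 members). The median of −0.12 became 0.044 with median scaling, 0.052 with 75th percentile scaling, −1.02 with scaling to the spike controls, −0.68 with blank subtraction and −0.39 with offset 0. Scaling to the spike controls put the median of all probes at −1.02 as well. With the limit at 3 SD, 17 members were measured on the DSS array and 21 on the control array. Subtraction of the files' background turned miR-714 to 1.28 and miR-690 to −1.50, and scaling to the spike controls turned miR-690 to −0.69. The cause was not tested. In all, 3 of the values of single members past 2-fold reversed, 5 fell under 2-fold and 28 passed it in the same direction. A further 65 moved. The other 104 either stayed past 2-fold in the same direction or, under 2-fold, within 0.15 of the reported value. That margin is the log2 spread of spike control spots. Reversals were counted only for members reported past 2-fold. Other members also changed sign, such as miR-706, at 0.51 as reported and −0.98 with scaling to the spike controls.

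No paired analysis was possible because each group holds 1 array. Signal over background limits the dim members: the median intensity over blanks of members measured on both arrays was 34.4 on the DSS array and 61.5 on the control array. In spots brighter than 1000 the files' background amounted to a median of 73.4% of the spot on the DSS array and 84.2% on the control array.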
